A study of Mus musculus with 12 samples.

Results

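Collagens are the triple-helical proteins that give the dermis its tensile strength and hold the epidermis onto it. This report covers all genes of the dorsal skin expression table whose symbol has the form of a collagen chain (Col, a type number, a and a chain number), which gave 44 of 36400 genes. They were sorted by known protein type into 11 fibrillar chains, 9 basement membrane chains and 9 FACIT chains (fibril-associated collagens with interrupted triple helices). The rest were 6 beaded filament chains, 4 transmembrane chains and 5 chains of other types. A library is the RNA of 1 skin sample, and there were 3 libraries in each of 4 groups of female BALB/c mice that were 6 weeks old when bought and sampled on day 30. Control mice, labelled Solvent, received only the acetone and olive oil vehicle. DNCB mice were sensitized with 1% and challenged with 0.5% dinitrochlorobenzene, a contact hapten used to raise dermatitis resembling atopic dermatitis. The scMSC and scivMSC mice received the same DNCB schedule and repeated injections of 2000000 human umbilical cord mesenchymal stem cells (MSCs). Each dose was given as 100 µL under the skin in scMSC and as 50 µL under the skin with 50 µL into the tail vein in scivMSC. The injected cells were of another species, and the sources used here do not state how reads of human origin were handled. The labels number the samples within a group and say no more of their origin, so p-values measure the spread between these samples, part of which may be technical.

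Every collagen molecule is built of 3 chains, and the chains of a type can come from the same gene or from several. Fibrillar collagens are secreted as procollagen, trimmed, assembled into fibrils and cross-linked, mainly by fibroblasts. FACIT collagens sit on the surface of these fibrils, type VI collagen forms beaded microfibrils around cells, and type IV collagen forms the sheet of basement membranes. Type VII and type XVII collagen anchor basal keratinocytes to that sheet and to the dermis. In wound repair and chronic dermatitis, dermal fibroblasts are known to change how much of these chains they make.

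Levels are given in FPKM, fragment counts scaled for transcript length and sequencing depth, so chains of different length can be set side by side. Totals ran from 63877153 to 75134001 estimated counts per library, and about 4 estimated counts stood for 1 fragment. Averaged over the 12 libraries, 36 of the 44 collagen genes reached 0.1 FPKM and were tested among 21890 genes. Of these, 27 reached 1 FPKM and 17 reached 10 FPKM. A gene was called when its adjusted p in edgeR's quasi-likelihood test was under 0.05 and its log2 fold change exceeded 1 in size. The skin label was checked on marker genes fixed for 13 cell types. Basal keratinocyte genes summed to 1539 to 10259 FPKM and fibroblast genes to 87.1 to 612 FPKM over the 12 libraries. Skeletal muscle genes were also present, at 13312 to 19349 FPKM in control and 3528 to 5254 FPKM in DNCB. The fibroblast sum was lowest in scivMSC replicate 3. The collagen genes called in scivMSC against DNCB and against control are therefore also given without this library. Group means and most fold changes are given with it alone. These are whole-tissue libraries, in which fewer cells of a type and less RNA per cell cannot be told apart.

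Most collagen genes expressed in skin rose in DNCB skin. The summed level of the 44 genes was 432, 331 and 471 FPKM in the 3 control libraries, 2615, 2821 and 2369 in DNCB, 973, 371 and 453 in scMSC and 876, 1245 and 307 in scivMSC. The DNCB sums were above those of the other 9 libraries, whereas the MSC libraries overlapped the control range. Of all estimated counts, collagen genes took 0.294% to 0.422% in control, 2.28% to 2.69% in DNCB, 0.335% to 0.901% in scMSC and 0.266% to 1.16% in scivMSC. Among the 36 tested genes 26 varied over the 4 groups at an adjusted p under 0.05, against 27.8% of all tested genes. These included 10 of 10 fibrillar chains, 5 of 8 basement membrane chains, 4 of 6 FACIT chains, 3 of 5 beaded filament chains, 1 of 3 transmembrane chains and 3 of 4 chains of other types. In DNCB against control 26 collagen genes (72.2%) were called, 21 higher and 5 lower. Of all tested genes 14.2% were called, 6.59% higher and 7.57% lower. Col26a1, counted among the 21, reached the level for testing only through its DNCB libraries. The median log2 fold change of the 36 collagen genes was 1.38, beside 0.02 over all tested genes. In 22 of them all 3 DNCB libraries exceeded all 9 others, which held for 9.44% of all tested genes, and in 4 (Col20a1, Col9a3, Col11a2 and Col8a2) they lay under all 9 others, against 4.03%.

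**Figure D1:**
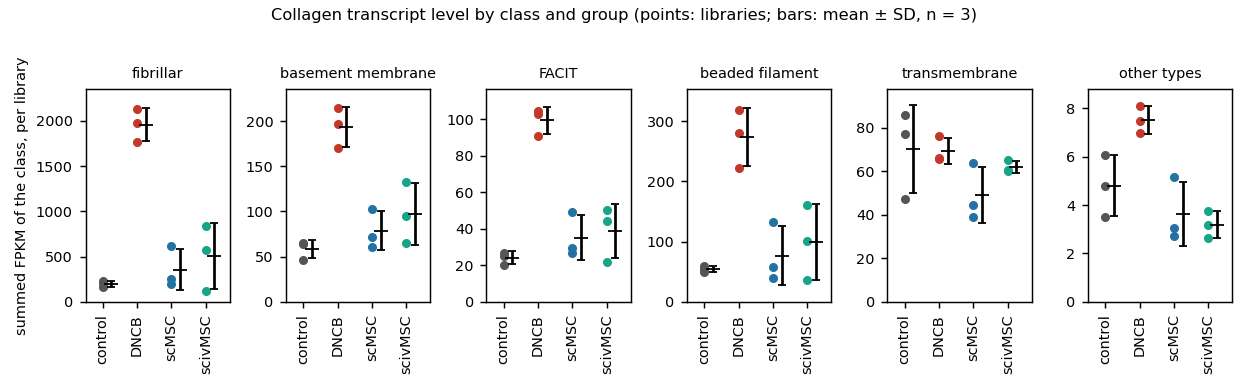
Summed FPKM of the collagen genes of each class (y axis, linear from 0, scale differs between panels) in the 12 libraries by group (x axis). Points are libraries and bars the mean ± SD of 3. The fibrillar panel separates DNCB, at 1768 to 2129 FPKM, from the other groups, at 117 to 837 FPKM, while the groups overlap in the transmembrane panel.

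The size of the rise differed between classes. Fibrillar chains summed to 199.7 ± 33.2 FPKM (SD, n = 3) in control and 1958 ± 182 in DNCB, a ratio of 9.81. The ratio was 5.02 for beaded filament chains, 4.14 for FACIT chains, 3.32 for basement membrane chains, 1.57 for the other types and 0.988 for transmembrane chains. The last class is made up almost wholly of Col17a1, whose keratinocyte-made protein is part of the hemidesmosome. These sums are descriptions, and no test was made on them.

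Fibrillar chains had the largest FPKM sum of any class in all 12 libraries and made up most of the collagen FPKM in DNCB, though not in control or in scivMSC replicate 3. Col1a1 (chromosome 11, 94936224 to 94953042, plus strand of GRCm38), which encodes the chain present in 2 copies in each type I molecule, was at 58.2, 46.6 and 56.1 FPKM in the control libraries, 710.3, 810.3 and 584 in DNCB, 201, 56.5 and 81.2 in scMSC and 191, 299.8 and 36.4 in scivMSC. All 3 DNCB libraries were far above the other groups, and scMSC replicates 1 and 3 and scivMSC replicates 1 and 2 stood above every control library. The log2 fold change was 3.53 ± 0.66 (SE, adjusted p = 0.00346) in DNCB against control. Col1a2 (chromosome 6, 4504814 to 4541544), the partner chain of type I, was at 46.1, 36.4 and 52.2 FPKM in the control libraries, 361, 401 and 304 in DNCB, 132, 41.5 and 56.1 in scMSC and 125, 166 and 23.6 in scivMSC, again with all DNCB libraries on top and a log2 fold change of 2.81 ± 0.60 (SE, adjusted p = 0.00663). Col3a1 (chromosome 1, 45311538 to 45349706), the only chain of type III collagen, which is abundant in young and healing skin, was at 71.5, 57.4 and 92.8 FPKM in the control libraries, 754, 748 and 729 in DNCB, 231, 74.3 and 85.5 in scMSC and 207, 303 and 35.2 in scivMSC. It rose by 3.16 ± 0.65 (SE, adjusted p = 0.00562) on the log2 scale, without overlap between DNCB and any other library.

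Type V collagen, which starts and limits the thickness of type I fibrils, moved with type I. Col5a1 (chromosome 2, 27886425 to 28039514) was at 9.26, 7.68 and 9.72 FPKM in the control libraries, 66.5, 79.4 and 60.8 in DNCB, 19, 7.00 and 10.6 in scMSC and 18.5, 27.2 and 4.58 in scivMSC, a log2 fold change of 2.78 ± 0.52 (SE, adjusted p = 0.0036) in DNCB against control. Col5a2 was at 5.97, 5.22 and 9.50 FPKM in the control libraries, 59.7, 64 and 58.7 in DNCB, 21.5, 7.18 and 7.95 in scMSC and 18, 24.8 and 4.73 in scivMSC, a log2 fold change of 2.97 ± 0.55 (SE, adjusted p = 0.00353). Both chains were above all other libraries in each DNCB library, and scivMSC replicate 3 was the lowest library for both. The third type V chain, Col5a3, changed less, with 9.40, 7.54 and 7.58 FPKM in the control libraries, 20.5, 19.3 and 24.2 in DNCB, 10.4, 5.10 and 5.73 in scMSC and 7.07, 10.3 and 6.95 in scivMSC and a log2 fold change of 1.2 ± 0.24 (SE, adjusted p = 0.00504).

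The minor fibrillar chains were low but mostly in step. Col11a1, a type XI chain best known from cartilage and also made by activated fibroblasts, was at 0.141, 0.277 and 0.159 FPKM in the control libraries, 1.27, 1.10 and 1.33 in DNCB, 0.868, 0.481 and 0.739 in scMSC and 0.671, 1.20 and 0.387 in scivMSC. Its 3 control libraries were lower than all others, with a log2 fold change of 2.48 ± 0.40 (SE, adjusted p = 0.00185) in DNCB. Its partner Col11a2 went the other way, at 1.84, 1.67 and 0.974 FPKM in the control libraries, 0.442, 0.752 and 0.802 in DNCB, 1.60, 2.94 and 2.42 in scMSC and 2.14, 2.00 and 1.97 in scivMSC, where all 3 DNCB libraries were the lowest of the 12, a log2 fold change of -1.36 ± 0.33 (SE, adjusted p = 0.0126). Col24a1 was at 0.566, 0.495 and 0.525 FPKM in the control libraries, 1.39, 2.02 and 1.28 in DNCB, 0.464, 0.281 and 0.354 in scMSC and 0.51, 0.522 and 0.248 in scivMSC, a log2 fold change of 1.38 ± 0.30 (SE, adjusted p = 0.00718). Col27a1 ranged from 0.898 to 1.29 FPKM in control and 2.88 to 3.38 FPKM in DNCB, a log2 fold change of 1.37 ± 0.33 (SE, adjusted p = 0.0124). Fibrillar chains thus gave 9 genes called higher and 1 called lower in DNCB among 10 tested, with a class median of 2.63 on the log2 scale. Col2a1, the defining collagen of cartilage, was at most 0.096 FPKM in any library and was not tested, and the cartilage marker genes summed to 0.659 to 2.33 FPKM.

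**Figure D2:**
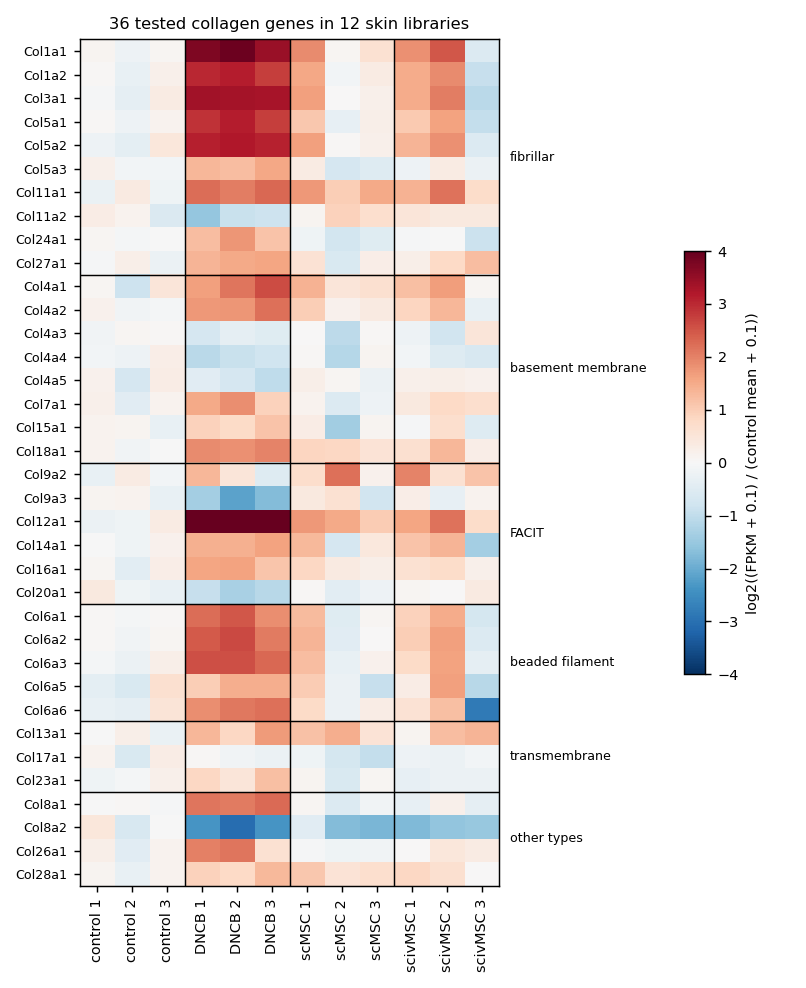
Level of the 36 tested collagen genes (rows, grouped by class) in each of the 12 libraries (columns), as log2 of the level over the mean of the control group, both with 0.1 FPKM added; colours saturate at -4 and 4, which Col12a1 exceeds in DNCB. DNCB columns are red for most rows and blue for Col11a2, Col9a3, Col20a1 and Col8a2, and among the MSC libraries scMSC replicate 1 and scivMSC replicates 1 and 2 are redder than the other 3 in the Col1a1, Col1a2, Col3a1, Col5a1 and Col6a1 rows.

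Sequence upstream of the start is shown for a pair of fibrillar chains that rose together, Col3a1 and Col5a1, since their promoters have little in common by the letters searched here. The windows run up to the base before the annotated start, from 5′ to 3′ on the gene's strand, as RefSeq gives them for GRCm38.p6. Capitals mark TATAAA in the first, at chr1:45311338-45311537 (plus strand, 37.5% G and C), and GGGCGG, a letter match to the GC box, in the second, at chr2:27886225-27886424 (plus strand, 75.5% G and C).
Col3a1: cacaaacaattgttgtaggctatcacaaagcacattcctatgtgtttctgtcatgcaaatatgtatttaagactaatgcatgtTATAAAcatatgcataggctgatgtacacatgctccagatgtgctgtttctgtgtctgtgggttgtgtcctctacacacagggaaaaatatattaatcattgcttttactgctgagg
Col5a1: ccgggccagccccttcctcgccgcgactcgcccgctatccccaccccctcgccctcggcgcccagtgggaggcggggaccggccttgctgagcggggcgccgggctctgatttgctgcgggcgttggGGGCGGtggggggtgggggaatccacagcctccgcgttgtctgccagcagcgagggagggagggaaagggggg
Promoter windows were found for 35 of the 44 genes, and the 250 bases before the start were searched on both strands. GGGCGG was in 21 of these 35, including 11 of 17 genes higher in DNCB and 2 of 4 lower, against 32.7% of all 32851 windows. CCAAT was in 12 of 35, with 8 of 17 higher and 0 of 4 lower, against 33.8% of all windows. TATAAA was in 5 of 35, against 12.4% of all windows, and TGANTCA, the letters of an AP-1 site, in Col6a1 alone, against 6.75%. No window was found for Col1a1 or Col12a1. For Col25a1, Col6a4, Col27a1 and Col1a2 the window's start lay 49344, 24282, 1408 and 804 bases from the gene start in the expression data. These genes are all among those with GGGCGG, and their windows may not be the promoters used in skin. The motifs were counted one by one, so matches may overlap, and a match here is a description of letters and not a binding site.

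Basement membrane chains split by type. Col4a1 (chromosome 8, 11198423 to 11312826, minus strand) and Col4a2 (chromosome 8, 11312805 to 11449287, plus strand) encode the chains of the type IV network found in nearly all basement membranes. The 2 genes lie head to head with overlapping ends, so that reads of that overlap may be shared if strand was not used in counting. Col4a1 was at 14.4, 7.56 and 18.9 FPKM in the control libraries, 42.8, 59.8 and 82.8 in DNCB, 35.9, 18.9 and 21.3 in scMSC and 31.4, 43.2 and 14.3 in scivMSC. Col4a2 was at 14.6, 11.6 and 12.2 FPKM in the control libraries, 43.1, 43.5 and 58.9 in DNCB, 25.4, 14.4 and 16.6 in scMSC and 23.5, 32.1 and 10.4 in scivMSC. In both genes every DNCB library was above every control library, whereas scivMSC replicate 2 slightly exceeded the lowest DNCB library for Col4a1. Log2 fold changes in DNCB against control were 2.01 ± 0.43 (SE, adjusted p = 0.00637) for Col4a1 and 1.74 ± 0.33 (SE, adjusted p = 0.00396) for Col4a2. The chains of the more specialised type IV networks did not share this rise. Col4a4 fell in DNCB, with a log2 fold change of -1.27 ± 0.34 (SE, adjusted p = 0.019) from 0.659 to 0.958 FPKM in control to 0.318 to 0.407 FPKM in DNCB. Its adjusted p was 0.0705 without DNCB replicate 1 and 0.0536 without DNCB replicate 2. Col4a5, a chain of the epidermal basement membrane, had a log2 fold change of -0.93 ± 0.26 (SE, adjusted p = 0.0232), past the p threshold and just short of the fold threshold. Col4a3 was at -0.88 ± 0.49 (SE, adjusted p = 0.226), with levels of 0.0989 to 0.47 FPKM over all libraries.

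Col7a1 (chromosome 9, 108953586 to 108984875), which encodes the anchoring fibrils that join the epidermal basement membrane to the dermis, was at 16.9, 10.7 and 16.2 FPKM in the control libraries, 42.2, 53.8 and 27.5 in DNCB, 16.1, 9.96 and 12.7 in scMSC and 19, 25.2 and 23.1 in scivMSC. The DNCB libraries were above all 9 others, though DNCB replicate 3 lay close to scivMSC replicate 2, and the log2 fold change was 1.32 ± 0.26 (SE, adjusted p = 0.00479). Basal keratinocyte markers moved with it, summing to 1659 to 2545 FPKM in control and 8026 to 10259 FPKM in DNCB, with 2 of 5 markers (Krt14 and Krt5) called higher. Their part in the result was not tested. Of the proteoglycan-like chains of basement membrane zones, Col18a1 rose from 6.43 to 7.71 FPKM in control to 25.2 to 27.9 FPKM in DNCB, a log2 fold change of 1.72 ± 0.21 (SE, adjusted p = 0.000729). Col15a1 ranged from 5.79 to 7.84 FPKM in control and 12.3 to 15.7 FPKM in DNCB without passing the test, at 0.77 ± 0.38 (SE, adjusted p = 0.169). Endothelial markers summed to 35.8 to 51.4 FPKM in control and 63.6 to 75.9 FPKM in DNCB, with 1 of 7 (Emcn) called higher; their part in these values was not tested.

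The largest change of any collagen gene was in the FACIT chain Col12a1 (chromosome 9, 79598991 to 79718720), whose product coats type I fibrils in dense and mechanically loaded tissue. Col12a1 was at 1.15, 1.20 and 1.73 FPKM in the control libraries, 46.9, 47.7 and 39.9 in DNCB, 4.74, 4.04 and 2.87 in scMSC and 4.23, 6.47 and 2.35 in scivMSC. The lowest DNCB library was over all 9 others by a wide margin, and the log2 fold change was 4.87 ± 0.35 (SE, adjusted p = 0.000288). The other fibril-coating chain of skin, Col14a1 (chromosome 15, 55307750 to 55520803), was at 8.94, 7.98 and 10.3 FPKM in the control libraries, 24.2, 24.4 and 27.8 in DNCB, 22.5, 5.65 and 12.3 in scMSC and 20.3, 23.7 and 3.49 in scivMSC. All 3 DNCB libraries were above the other 9, but scMSC replicate 1 and scivMSC replicates 1 and 2 came close, and the gene was not called at 1.31 ± 0.57 (SE, adjusted p = 0.12). With scivMSC replicate 3 left out its adjusted p was 0.0245, and with control and DNCB libraries alone 0.000744. Col16a1 rose from 7.49 to 12.1 FPKM in control to 21.9 to 30.9 FPKM in DNCB, a log2 fold change of 1.28 ± 0.21 (SE, adjusted p = 0.00197).

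A pair of low FACIT chains went against the family. Col9a3, a type IX chain known from cartilage, was at 1.11, 1.16 and 0.832 FPKM in the control libraries, 0.347, 0.157 and 0.239 in DNCB, 1.38, 1.64 and 0.565 in scMSC and 1.26, 0.815 and 1.15 in scivMSC, a log2 fold change of -2.24 ± 0.44 (SE, adjusted p = 0.00465). Col20a1 was at 3.06, 2.04 and 1.90 FPKM in the control libraries, 1.19, 0.888 and 1.03 in DNCB, 2.44, 1.71 and 2.02 in scMSC and 2.49, 2.39 and 3.00 in scivMSC, a log2 fold change of -1.36 ± 0.24 (SE, adjusted p = 0.00249). All 3 DNCB libraries were the lowest of the 12 for both genes, and both overlap another annotated gene, Col9a3 on the opposite strand and Col20a1 on the same strand, so part of their reads could belong to the neighbour. Col9a2 was between 0 and 0.558 FPKM and was not called in any comparison.

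The chains of the classic type VI molecule rose together. Col6a1 (chromosome 10, 76708792 to 76726168) was at 31, 28.1 and 30.8 FPKM in the control libraries, 142, 169 and 109.7 in DNCB, 72.1, 21.3 and 31.6 in scMSC and 56.3, 83.8 and 18.4 in scivMSC. Col6a2 was at 13.2, 11.6 and 13.5 FPKM in the control libraries, 70.2, 80.0 and 54.2 in DNCB, 33, 9.38 and 12.9 in scMSC and 25.4, 40.4 and 8.71 in scivMSC. Col6a3 (chromosome 1, 90765923 to 90843971), the longest of them, was at 10.001, 8.97 and 12.4 FPKM in the control libraries, 63, 63.1 and 52.2 in DNCB, 24.6, 8.43 and 11.7 in scMSC and 17.7, 32.4 and 8.18 in scivMSC. For each of the 3 chains the DNCB libraries were above all others and scivMSC replicate 3 and scMSC replicate 2 were below every control library. Log2 fold changes in DNCB against control were 2.05 ± 0.50 (SE, adjusted p = 0.0129), 2.23 ± 0.52 (SE, adjusted p = 0.00994) and 2.33 ± 0.45 (SE, adjusted p = 0.00432), in that order. The chains that can take the place of Col6a3 were lower and more scattered. Col6a5 was at 0.147 to 0.487 FPKM in control and 0.639 to 0.929 FPKM in DNCB, and Col6a6 at 0.774 to 1.51 and 4.04 to 5.1 FPKM. Neither was called, with log2 fold changes of 1.45 ± 0.85 (SE, adjusted p = 0.248) and 2.01 ± 0.83 (SE, adjusted p = 0.102).

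Of the 3 tested transmembrane collagens, Col13a1 was called higher in DNCB and Col17a1 and Col23a1 were not called. Col17a1 (chromosome 19, 47646344 to 47692094), the collagen of the hemidesmosome of basal keratinocytes, was at 73.4, 43.3 and 81.3 FPKM in the control libraries, 68.4, 59.5 and 55.8 in DNCB, 58.5, 40.9 and 34 in scMSC and 56.9, 55.9 and 60.9 in scivMSC. The groups overlapped, and the log2 fold change in DNCB against control was -0.28 ± 0.23 (SE, adjusted p = 0.412), while the basal keratinocyte markers Krt14 and Krt5 were called higher in the same libraries. Col23a1 was at 3.34, 3.61 and 4.38 FPKM in the control libraries, 6.72, 5.37 and 8.74 in DNCB, 4.09, 2.46 and 3.98 in scMSC and 2.99, 3.19 and 3.19 in scivMSC, with all 3 DNCB libraries above the other 9, and had a log2 fold change of 0.7 ± 0.20 (SE, adjusted p = 0.0271), past the p threshold but short of the fold threshold. Col13a1 was the only called chain of the class, with 0.273 to 0.420 FPKM in control and 0.682 to 1.35 FPKM in DNCB and a log2 fold change of 1.35 ± 0.44 (SE, adjusted p = 0.0465). That call was weak, since its adjusted p ran up to 0.148, reached without DNCB replicate 3, and was above 0.05 in 9 of the 12 fits that left out a library.

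The pair of type VIII chains, which form the short-chain network of vessel walls and of the corneal basement membrane, moved in opposite directions. Col8a1 (chromosome 16, 57624258 to 57754737) was at 1.00, 1.047 and 0.976 FPKM in the control libraries, 4.74, 4.57 and 5.27 in DNCB, 1.08, 0.664 and 0.901 in scMSC and 0.791, 1.17 and 0.757 in scivMSC, a log2 fold change of 2.08 ± 0.20 (SE, adjusted p = 0.000431). Col8a2 (chromosome 4, 126286793 to 126314330) was at 4.03, 1.81 and 2.85 FPKM in the control libraries, 0.49, 0.264 and 0.484 in DNCB, 2.09, 0.8 and 0.742 in scMSC and 0.787, 0.912 and 0.955 in scivMSC, a log2 fold change of -2.99 ± 0.45 (SE, adjusted p = 0.00138). DNCB libraries were the highest of the 12 for Col8a1 and the lowest for Col8a2. The upstream windows of the pair are shown for comparison, in capitals GGGCGG or its complement CCGCCC, which occur 4 times in each with overlaps counted; they are chr16:57754738-57754937 (minus strand, 62.5% G and C) for Col8a1 and chr4:126286594-126286792 (plus strand, 75.4% G and C) for Col8a2.
Col8a1: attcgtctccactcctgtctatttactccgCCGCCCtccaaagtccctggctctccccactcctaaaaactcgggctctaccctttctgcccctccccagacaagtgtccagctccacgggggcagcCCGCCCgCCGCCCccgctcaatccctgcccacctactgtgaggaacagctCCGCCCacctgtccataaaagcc
Col8a2: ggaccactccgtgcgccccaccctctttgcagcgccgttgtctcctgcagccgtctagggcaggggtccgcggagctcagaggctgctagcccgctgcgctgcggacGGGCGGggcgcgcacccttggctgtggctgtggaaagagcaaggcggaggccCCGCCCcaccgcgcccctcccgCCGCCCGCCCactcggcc
So the GC-box letters were common to a chain that rose and to one that fell. Of the remaining chains, Col26a1 was at 0.117, 0.0338 and 0.102 FPKM in the control libraries, 0.64, 0.706 and 0.181 in DNCB, 0.0784, 0.0651 and 0.0678 in scMSC and 0.0855, 0.15 and 0.132 in scivMSC, a log2 fold change of 2.4 ± 0.57 (SE, adjusted p = 0.0108) in which DNCB replicate 3 was much lower than DNCB replicates 1 and 2. Because Col26a1 reached the level for testing only through its DNCB libraries, its call adds no separate evidence of a rise. Col28a1 was between 0.63 and 0.877 FPKM in control and 1.43 and 2.1 FPKM in DNCB, with 0.93 ± 0.26 (SE, adjusted p = 0.022), just short of the fold threshold.

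**Figure D3:**
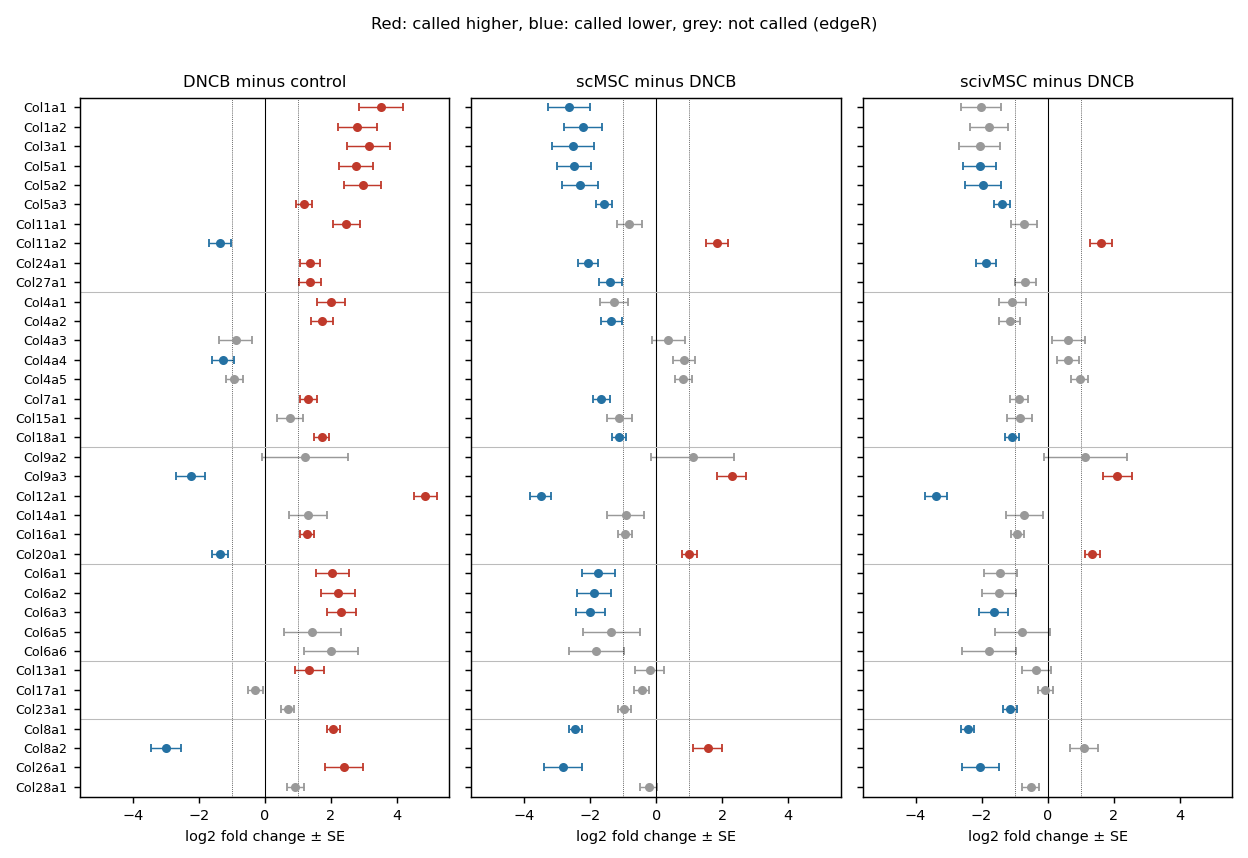
Log2 fold change ± SE (x axis) of the 36 tested collagen genes (y axis, in class order, grey lines between classes) in DNCB against control and in each MSC group against DNCB, from edgeR; red points were called higher, blue lower and grey not called, and dotted lines mark -1 and 1. The 3 panels share the DNCB libraries, and Col12a1 has the largest value in each.

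Of the 21 chains called higher in DNCB, 17 were called lower in scMSC and 9 in scivMSC, each against DNCB. The same count was not made for all genes called higher in DNCB, so these 2 counts have no background beside them. In scMSC against DNCB 21 of 36 collagen genes were called, 17 lower and 4 higher, against 8.5% of all tested genes (4.66% higher and 3.84% lower). The median was -1.31, beside 0.02 over all genes. In scivMSC against DNCB 13 were called, 10 lower and 3 higher, against 5.46% of all tested genes (3.13% higher and 2.33% lower). The median was -0.99, beside 0.02. These comparisons use the same 3 DNCB libraries as DNCB against control, so a high or low value in those libraries enters all of them with opposite sign. Col12a1 had the largest fall, with a log2 fold change of -3.5 ± 0.33 (SE, adjusted p = 0.000773) in scMSC and -3.38 ± 0.33 (SE, adjusted p = 0.00148) in scivMSC. Col8a1 fell in both as well, with -2.44 ± 0.20 (SE, adjusted p = 0.000352) and -2.42 ± 0.20 (SE, adjusted p = 0.000914). The chains Col9a3, Col11a2 and Col20a1 rose in both MSC groups, by 2.29 ± 0.44 (SE, adjusted p = 0.00791) and 2.12 ± 0.44 (SE, adjusted p = 0.0182) for Col9a3. Col8a2 rose in scMSC, at 1.56 ± 0.43 (SE, adjusted p = 0.0376), and was not called in scivMSC, at 1.11 ± 0.43 (SE, adjusted p = 0.146).

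Fibrillar chains showed how far the MSC replicates were apart. In scMSC against DNCB 8 fibrillar chains were called lower and 1 higher of 10 tested, with log2 fold changes of -2.64 ± 0.63 (SE, adjusted p = 0.0203) for Col1a1, -2.51 ± 0.63 (SE, adjusted p = 0.0259) for Col3a1 and -2.49 ± 0.51 (SE, adjusted p = 0.0104) for Col5a1. In scivMSC 4 were called lower and 1 higher, the largest fall being -2.06 ± 0.51 (SE, adjusted p = 0.0325) in Col5a1. Col1a1, Col1a2 and Col3a1 missed the threshold in scivMSC, at -2.02 ± 0.62 (SE, adjusted p = 0.0717), -1.78 ± 0.58 (SE, adjusted p = 0.0866) and -2.06 ± 0.62 (SE, adjusted p = 0.0703). None of their 3 scivMSC libraries overlapped the DNCB libraries, and the scivMSC values ran from 36.4 to 299.8 FPKM for Col1a1. DESeq2 gave adjusted p of 0.00392 for Col1a1, 0.00846 for Col1a2 and 0.00348 for Col3a1 in this comparison. The scMSC calls of the type I and III chains were near the threshold as well, since Col1a1 had an adjusted p of 0.0796 without scMSC replicate 2, 0.0756 without scMSC replicate 3, 0.0518 without DNCB replicate 1 and 0.0593 without DNCB replicate 2.

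Outside the fibrillar class, Col26a1 had log2 fold changes of -2.82 ± 0.57 (SE, adjusted p = 0.00989) in scMSC and -2.04 ± 0.56 (SE, adjusted p = 0.0476) in scivMSC against DNCB, the second of which was lost in most alternative fits. Both rest on a gene that reached the level for testing only through its DNCB libraries. Col7a1 fell in scMSC, at -1.66 ± 0.26 (SE, adjusted p = 0.00351), and had a value of -0.87 ± 0.26 (SE, adjusted p = 0.0669) in scivMSC. Of the type IV pair, Col4a2 fell in scMSC at -1.35 ± 0.33 (SE, adjusted p = 0.0216) and Col4a1 was not called at -1.27 ± 0.42 (SE, adjusted p = 0.0728), with 0.0388 without scivMSC replicate 3. Col18a1 fell in both groups, at -1.11 ± 0.21 (SE, adjusted p = 0.00716) and -1.08 ± 0.21 (SE, adjusted p = 0.0143). The type VI chains Col6a1, Col6a2 and Col6a3 were all called lower in scMSC, with -1.99 ± 0.45 (SE, adjusted p = 0.0152) for Col6a3. Their adjusted p was above 0.05 in 9, 8 and 2 of the 12 fits that left out a library, in that order. In scivMSC Col6a3 alone was called at -1.63 ± 0.44 (SE, adjusted p = 0.0467), and its adjusted p was above 0.05 in 9 of those 12 fits, with -1.27 ± 0.40 (SE, adjusted p = 0.115) without scivMSC replicate 3. Col23a1 was lower in scivMSC, at -1.14 ± 0.20 (SE, adjusted p = 0.00978), and missed the fold threshold in scMSC, at -0.97 ± 0.20 (SE, adjusted p = 0.011). Leaving out each library in turn and changing the scaling, filter and test, 24 of the 26 genes called in DNCB against control kept an adjusted p under 0.05 throughout, as did 10 of 21 in scMSC against DNCB and 6 of 13 in scivMSC against DNCB. The 6 were Col12a1, Col20a1, Col23a1, Col24a1, Col5a3 and Col8a1. The number called in scMSC against DNCB was 13 without DNCB replicate 2, 12 without scMSC replicate 2 and 13 without scMSC replicate 3, and in scivMSC against DNCB it was 8 without DNCB replicate 1, 7 without DNCB replicate 2, 6 without scivMSC replicate 1 and 8 without scivMSC replicate 3. Without this last library Col5a2, Col6a3, Col9a3, Col18a1 and Col26a1 were no longer called.

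Against control, few collagen genes were called in MSC-treated skin, which does not show that levels were equal. Mean fibrillar sums were 1.78 (scMSC) and 2.55 (scivMSC) times control, with class medians of 0.53 and 0.86 on the log2 scale. The scivMSC mean includes replicate 3, with a fibrillar sum of 117 FPKM beside 571 and 837 in replicates 1 and 2 and 164 to 231 in control. Sums of all collagens were 1.46 and 1.97 times control. Transmembrane sums, at 0.698 and 0.882 times, and those of the other types, at 0.759 and 0.667 times, were under control. In scMSC 3 of 36 were called (8.33%) where 9.32% of all tested genes were, 5.12% higher and 4.2% lower. In scivMSC it was again 3 of 36 where 6.85% of all tested genes were called, 3.5% higher and 3.35% lower. The share was close to the background in both. In both comparisons, which share the control libraries, they were Col12a1 and Col11a1, higher, and Col8a2, lower. Col12a1 was higher by 1.36 ± 0.30 (SE, adjusted p = 0.0116) in scMSC and 1.49 ± 0.30 (SE, adjusted p = 0.0117) in scivMSC. Col11a1 was higher by 1.67 ± 0.39 (SE, adjusted p = 0.0149) and 1.76 ± 0.39 (SE, adjusted p = 0.0165), and Col8a2 differed by -1.43 ± 0.43 (SE, adjusted p = 0.0395) and -1.88 ± 0.43 (SE, adjusted p = 0.0181). None of the 3 kept its adjusted p under 0.05 in every fit, and without control replicate 1 none of the 36 genes was called in either comparison. In scMSC against control 1 gene was called without control replicate 3 and 1 without scMSC replicate 2. In scivMSC against control 1 gene was called without scivMSC replicate 2, and 8 without scivMSC replicate 3, namely Col1a1, Col1a2, Col3a1, Col5a1, Col5a2, Col11a1 and Col12a1, higher, and Col8a2, lower. Without that library Col1a1 was 1.95 ± 0.43 (SE, adjusted p = 0.0155) and Col3a1 1.56 ± 0.41 (SE, adjusted p = 0.0337) in scivMSC against control, beside 1.5 ± 0.61 (SE, adjusted p = 0.134) and 1.1 ± 0.61 (SE, adjusted p = 0.274) with it.

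The 2 injection routes were not told apart by any collagen gene. In scivMSC against scMSC edgeR called 0 of 36 collagen genes, DESeq2 also called 0, and 1 collagen gene, Col7a1, had an unadjusted p under 0.05. Among all tested genes, 0.00457% (1 gene) were called. Col7a1 was 0.79 ± 0.26 (SE, adjusted p = 0.594) in scivMSC relative to scMSC. For Col1a1 the difference was 0.61 ± 0.60 (SE, adjusted p = 0.923), so a difference of the size of this standard error was not detectable with this spread between replicates.

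Of 7 ratios of chains taken within each library, Col1a1 to Col1a2 and Col6a1 to Col6a2 did not overlap between DNCB and control, and the other 5 did. Type I collagen usually assembles from Col1a1 and Col1a2 chains in fixed proportion. The FPKM ratio of Col1a1 to Col1a2 was 1.26, 1.28 and 1.08 in the control libraries, 1.97, 2.02 and 1.92 in DNCB, 1.52, 1.36 and 1.45 in scMSC and 1.53, 1.80 and 1.54 in scivMSC. All 3 DNCB libraries had a higher ratio than any other library, and all 6 MSC libraries lay between the control and the DNCB ranges. The ratio of Col3a1 to Col1a1 was 1.23, 1.23 and 1.65 in the control libraries, 1.06, 0.924 and 1.25 in DNCB, 1.15, 1.31 and 1.052 in scMSC and 1.09, 1.01 and 0.969 in scivMSC, with groups that overlapped. Col6a1 over Col6a2 was 2.27 to 2.41 in control and 2.02 to 2.12 in DNCB, and Col4a1 over Col4a2 was 0.654 to 1.55 in control and 0.994 to 1.41 in DNCB. Col5a1 over Col5a2 was 1.02 to 1.55 and 1.04 to 1.24, Col4a3 over Col4a4 0.337 to 0.507 and 0.472 to 0.594, and Col6a3 over Col6a1 0.319 to 0.404 and 0.372 to 0.476 in these groups. Ratios were chosen after seeing the levels and carry no test, and FPKM of different genes can differ in bias by sequence and gene model.

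**Figure D4:**
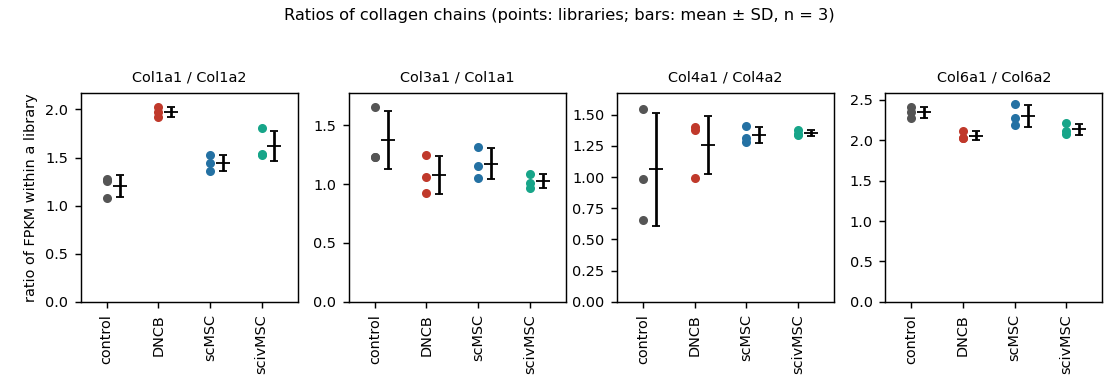
FPKM ratios of 4 pairs of collagen chains within each library (y axis, linear from 0) by group (x axis); points are libraries and bars the mean ± SD of 3. For Col1a1 over Col1a2 the DNCB libraries lie at 1.92 to 2.02 and the control libraries at 1.08 to 1.28, and in the Col3a1 over Col1a1 and Col4a1 over Col4a2 panels the groups overlap.

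The genes that process collagen and were called in DNCB skin were all higher. Of a list of 34 genes for procollagen hydroxylation, folding, export, trimming and cross-linking, 32 were tested, and DNCB against control gave 13 genes above and 0 below, where 6.59% of all tested genes were called higher and 7.57% lower, with a median of 1.16 on the log2 scale. Among those not called, Pcolce2, an enhancer of procollagen trimming, was at -1.15 ± 0.62 (SE, adjusted p = 0.208). By size these began with P4ha3, a subunit of prolyl hydroxylase, at 3.6 ± 0.95 (SE, adjusted p = 0.018), Lox, a collagen cross-linking oxidase, at 2.9 ± 0.48 (SE, adjusted p = 0.00195), and Serpinh1, the collagen chaperone HSP47, at 2.61 ± 0.38 (SE, adjusted p = 0.00127). Loxl2, a relative of Lox, followed at 2.57 ± 0.41 (SE, adjusted p = 0.00167), then Fkbp10, a prolyl isomerase of procollagen, at 2.37 ± 0.35 (SE, adjusted p = 0.00127), and Sparc, a collagen-binding matrix protein, at 2.19 ± 0.40 (SE, adjusted p = 0.0031). Lox was at 4.24, 3.95 and 4.95 FPKM in the control libraries, 33.6, 37.9 and 40.0 in DNCB, 17.5, 6.78 and 8.42 in scMSC and 16.8, 17.8 and 4.06 in scivMSC, so all 3 DNCB libraries were above the other 9. In scMSC against DNCB 14 genes of the list were called lower and 0 higher, beside 3.84% lower and 4.66% higher over all tested genes, with a median of -1.0. In scivMSC against DNCB 7 were lower and 0 higher, beside 2.33% and 3.13%, with a median of -0.94. Fkbp10 was among the largest in both, at -2.13 ± 0.34 (SE, adjusted p = 0.00366) and -1.93 ± 0.34 (SE, adjusted p = 0.00977).

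Of the 32 tested genes of the collagen processing list, 2 (Plod2 and Serpinh1) were called higher and 1 lower than control in each MSC group. Among all tested genes 5.12% were called higher and 4.2% lower in scMSC, and 3.5% and 3.35% in scivMSC. The counts were thus near the background. Plod2, the lysyl hydroxylase of collagen telopeptides, was at 0.678, 1.62 and 0.626 FPKM in the control libraries, 3.54, 3.48 and 3.65 in DNCB, 2.87, 3.81 and 2.72 in scMSC and 2.69, 3.37 and 2.95 in scivMSC. The control libraries were the lowest 3 of the 12 and the MSC and DNCB groups overlapped, with log2 fold changes against control of 1.66 ± 0.35 (SE, adjusted p = 0.00581) in DNCB, 1.51 ± 0.34 (SE, adjusted p = 0.0127) in scMSC and 1.43 ± 0.34 (SE, adjusted p = 0.0217) in scivMSC. Serpinh1 was higher than control by 1.26 ± 0.37 (SE, adjusted p = 0.0364) and 1.57 ± 0.37 (SE, adjusted p = 0.0197), and Tmem38b, an ion channel of the endoplasmic reticulum, was lower, at -1.17 ± 0.30 (SE, adjusted p = 0.0203) and -1.15 ± 0.30 (SE, adjusted p = 0.0279). No gene of the list was called between the MSC groups. Among all tested genes 6.59% were called higher in DNCB against control, and 3.84% and 2.33% lower in scMSC and scivMSC against DNCB. Of 10 collagen receptors and uptake genes 9 were tested, and 2 were called higher in DNCB and lower in both MSC groups relative to DNCB. They were Mrc2, the receptor that takes up cleaved collagen, at 1.51 ± 0.35 (SE, adjusted p = 0.00995), -1.61 ± 0.35 (SE, adjusted p = 0.0135) and -1.36 ± 0.35 (SE, adjusted p = 0.0381) in these 3 comparisons, and Itgb1. Itgb1, the beta chain shared by the collagen-binding integrins, was at 1.23 ± 0.25 (SE, adjusted p = 0.00523), -1.25 ± 0.25 (SE, adjusted p = 0.00908) and -1.34 ± 0.25 (SE, adjusted p = 0.0118). Itga10 alone of the 9 was called in scivMSC against control, higher at 1.41 ± 0.40 (SE, adjusted p = 0.0404), where 3.5% of all tested genes were called higher.

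The fibroblast marker sum differed less between groups than the fibrillar sum. The 8 markers summed to 309.9 to 429 FPKM in control, 595 to 612 in DNCB, 195 to 485 in scMSC and 87.1 to 454 in scivMSC, and 2 of 8 (Pdgfra and Thy1) were called higher in DNCB. Dpt weighed most in this sum, with means of 173 FPKM in control and 202 in DNCB. Control and DNCB means were 64.8 and 109 for Dcn, 44.2 and 168 for Lum, 34.2 and 30.3 for Pi16 and 17.1 and 40.2 for Thy1. They were 8.61 and 18.1 for Fbln1, 7.84 and 16.3 for Mfap5 and 5.05 and 18.7 for Pdgfra. A quotient by the sum depends on this weighting. The fibrillar sum divided by this marker sum was 0.623, 0.531 and 0.538 in the control libraries, 3.23, 3.58 and 2.94 in DNCB, 1.28, 1.01 and 0.848 in scMSC and 1.26, 2.02 and 1.34 in scivMSC. All DNCB libraries were above all others in this quotient, and all 6 MSC libraries above all 3 control libraries. In scivMSC replicate 3, the library with the lowest collagen sum, the fibroblast markers summed to 87.1 FPKM and its quotient lay inside the range of the other 2 scivMSC libraries. For the other sums divided the same way it lay above both, at 3.52 beside 1.93 and 3.00 for all collagens, 0.407 beside 0.224 and 0.386 for beaded filament chains and 0.740 beside 0.210 and 0.320 for basement membrane chains. The last of these was also above all 3 DNCB libraries, at 0.278 to 0.357. The quotient was chosen after seeing the levels, and what part fibroblast number has in the collagen levels was not tested.

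**Figure D5:**
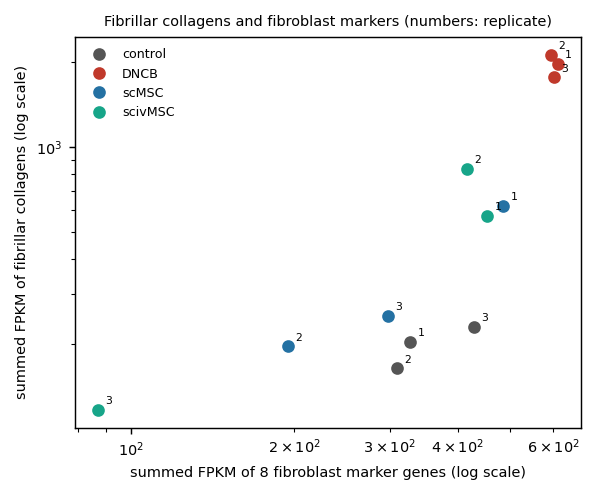
Summed FPKM of the fibrillar collagens (y axis, log scale) against the summed FPKM of 8 fibroblast marker genes (x axis, log scale) in the 12 libraries, coloured by group, with replicate numbers. The 3 DNCB libraries have the most of both, and scivMSC replicate 3 the least, with 87.1 FPKM of markers.

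Other cell types also moved between the groups, and their part in the collagen results was not tested. All 5 neutrophil markers were called higher in DNCB, where they summed to 2454 to 3421 FPKM beside 120.4 to 207 in control. Skeletal muscle markers were lower than control in the other 3 groups, with 4 of 5 called lower in each, and sums of 3681 to 7911 FPKM in scMSC and 4004 to 9360.2 in scivMSC. Hair matrix and shaft markers were high in MSC-treated skin, at 2453 to 6798 FPKM in scMSC and 952 to 2314 in scivMSC, beside 118 to 362 in DNCB and 6.75 to 135 in control. Smooth muscle and myofibroblast markers summed to 526 to 813 FPKM in control and 307 to 369.7 in DNCB, with Acta2 called higher and Des lower. Des weighed most in this sum, with means of 659.6 FPKM in control and 238.9 in DNCB. The other control and DNCB means were 20.99 and 54.4 for Acta2 and 15.2 and 33.7 for Tagln. They were 4.38 and 4.68 for Myh11 and 1.38 and 1.31 for Cnn1. The lower sum in DNCB thus came from Des. Macrophage markers summed to 33.3 to 119.5 FPKM in control and 115 to 147 in DNCB with 0 of 5 called. Adipocyte markers summed to 472 to 584 and 196 to 359 with 3 of 5 called lower. Dermal papilla markers summed to 22.5 to 28.2 and 85.7 to 109.6 with Crabp1 called higher. Most of this rise was in Crabp1, with means of 9.596 FPKM in control and 80.6 in DNCB. For Sostdc1 the control and DNCB means were 13.24 and 18.3, and for Corin 0.455 and 0.6296. Alpl and Prom1 were lower in DNCB, with means of 1.91 and 1.48 for Alpl and 0.607 and 0.437 for Prom1. Suprabasal keratinocyte markers summed to 3850.4 to 9637 FPKM in control and 5425 to 9344 in DNCB with Lor called lower.

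The 8 genes that were not tested for low level were Col2a1, Col4a6, Col6a4, Col9a1, Col10a1, Col19a1, Col22a1 and Col25a1. Their highest values in any library were 0.096 FPKM for Col2a1, 0.127 for Col4a6, 0.202 for Col6a4, 0.00923 for Col9a1, 0.233 for Col10a1, 0.118 for Col19a1, 0.142 for Col22a1 and 0.198 for Col25a1. Col9a1, a cartilage chain, was at 0 in 11 of 12 libraries. At the threshold of 0.1 FPKM, the members just inside were Col9a2 and Col26a1 and just outside Col6a4 and Col25a1, with means of 0.171, 0.197, 0.0932 and 0.0885 FPKM. A total of 23 collagen genes overlap another gene in the annotation, 14 of them a gene on the opposite strand, and whether the counting used strand is not given in the sources used here.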

How the data were processed

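RNA-seq of dorsal skin gave 12 libraries, 3 in each of 4 groups named after the labels. The authors deposited FPKM, which correct for transcript length and sequencing depth, together with estimated counts, whole numbers that had no scaling between libraries. The submitters' processing notes name HISAT2 2.0, StringTie 1.3.0, Bowtie 0.12.2 and mm8, without roles, while the coordinates in the table are those of GRCm38. The collagen genes, their classes and the gene lists were chosen with earlier results of these data known. Genes that averaged 0.1 FPKM or more were fitted on their estimated counts in edgeR 4.0.16 (R 4.3.3) with TMM factors (0.887 to 1.06) and 1 model of the 4 groups, which had a common biological coefficient of variation of 0.420. The quasi-likelihood F-test was adjusted by Benjamini-Hochberg over 21890 genes, and standard errors were taken from the F statistic. Called means an adjusted p under 0.05 together with a log2 fold change above 1 or under -1. Of the estimated counts from 1 to 18, 38.9% to 41.2% were multiples of 4, so a floor of 3 fragments was set at 12 estimated counts, which covers counting error only. On simulated data for DNCB against control, 65% of genes changed by 1.5 and 91% changed by 3 on the log2 scale were recovered, with 5 false calls. The changed genes were few and drawn only from better expressed genes, so these shares do not carry over to the low collagen chains.

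Values in every library are given for 12 major chains and, in each comparison, for up to 12 called collagen genes with the largest fold changes; the rest are given by range and count. Up to 6 genes per pathway list are named. Other marker genes are named only as members of counts, except the smooth muscle and myofibroblast, fibroblast and dermal papilla markers. Means are given for these because their sums depend heavily on Des, Dpt and Crabp1, in that order. Pathway genes beyond the rule (Plod2, Tmem38b, Itga10, Mrc2 and Itgb1) are named because they make up counts of 5 or fewer. Pcolce2 was chosen after its values were seen. Alternatives were DESeq2 1.42.0, limma 3.58.1 on log2(FPKM + 0.1) and log2(FPKM + 1), other scalings and filters, counts divided by 4, a replicate block, fits of 2 groups alone and leaving out each library. Replicates correlated at 0.928 to 0.957 on the log2 scale and none held identical values. Promoter windows are RefSeq's on GRCm38.p6. Tables were made with Python 3.11.15, pandas 2.3.3 and numpy 2.4.6, and figures with matplotlib 3.10.9. Blood was not analysed here, and the result of 1 marker list is not reported here.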

Additional observations from a re-analysis of the deposited data

Results flagged for a closer look

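Some collagen genes below the level set for testing were still higher in DNCB-treated skin than in control. Col6a4, a chain related to Col6a3, had means of 0.181 FPKM in DNCB, 0.0961 in scMSC and 0.0936 in scivMSC, while its 3 control libraries were at 0.0077, 0 and 0 FPKM, at the floor. In a fit without the filter on low values the adjusted p from edgeR was 0.00397 in DNCB, 0.0125 in scMSC and 0.0183 in scivMSC, each against control. Col25a1, a transmembrane chain, had a mean of 0.107 FPKM in DNCB, above its control libraries, which ran from 0.00794 to 0.0796 FPKM, and in the same fit its adjusted p was 0.441. Col6a4 and Col25a1 were set apart because they lie outside the tested genes and are higher than in the control samples.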

How the results depend on the processing

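Leaving out each library in turn, the number of collagen genes called ran from 25 to 27 in DNCB against control, 12 to 22 in scMSC against DNCB, 6 to 17 in scivMSC against DNCB, 0 to 3 in scMSC against control, 0 to 8 in scivMSC against control and 0 to 0 in scivMSC against scMSC, and 20 to 26 varied over the 4 groups. With only the libraries of the 2 groups compared, 8 were called in scivMSC against DNCB and 1 in scivMSC against control. With edgeR's filterByExpr 5 were called in scivMSC against control, and with limma on log2(FPKM + 1) 1 was called in scMSC against control. Limma with that pseudocount of 1, which shrinks low genes, gave 18 higher and 1 lower calls in DNCB against control, 0 higher and 15 lower in scMSC against DNCB and 0 higher and 11 lower in scivMSC against DNCB. With library size alone 2 genes were called higher and 0 lower in scMSC against control, and the median over all genes in DNCB against control moved from 0.02 to 0.20, so the collagen median of 1.38 stands well above that shift. The collagen share of all FPKM was 7.00 times as high in DNCB as in control, and 5.71 times when the 50 highest genes were left out of the denominator. Col17a1 in scivMSC against DNCB ran from -0.14 to 0.016 when a library was left out, and reversed to 0.016 (adjusted p = 0.99) without DNCB replicate 1, beside -0.07 with it. Over 80 pairs of a gene and a comparison (every called collagen gene, and the 12 major chains in DNCB against control and both MSC groups against DNCB) and 22 alternatives, 1584 values kept direction and side of the threshold, 154 lost and 21 gained an adjusted p under 0.05, and 1 reversed. Pairs that were not called against control are outside this count, among them Col1a1, Col1a2, Col3a1, Col5a1 and Col5a2 in scivMSC, which passed the threshold without scivMSC replicate 3; unless stated, the cause was not tested. With the replicate number as a block, 25, 21, 10, 3, 3 and 0 collagen genes were called in DNCB against control, scMSC against DNCB, scivMSC against DNCB, scMSC against control, scivMSC against control and scivMSC against scMSC, and 25 varied over the groups. Deviations of same-numbered samples correlated at -0.21 to 0.15, over 0.1 in 1 of 18 pairs, so no pairing by number was seen. Differently numbered samples were not compared in this way, so a pairing is not excluded. Precision is limited by 3 libraries per group and, for chains under 1 FPKM, by few fragments.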
